A study of Mus musculus with 2 samples.

Results

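The 8 genes described here encode pore-forming subunits of voltage-gated ion channels: the sodium channel genes Scn1a, Scn2a, Scn3a and Scn8a, and the calcium channel genes Cacna1a, Cacna1c, Cacna1d and Cacna1e. They were chosen by name and make up 8 of the 18366 genes listed in either library, and all 8 were listed in both. The measurements are UMI counts (unique molecular identifiers, 1 for each captured transcript) from droplet-based sequencing of single cells of C57BL/6 mouse gliomas. PDGFB, a growth factor that drives proliferation of oligodendrocyte precursors, had been introduced into the embryonic telencephalon in utero, and tumours were taken about 40 days after birth. Tumour cells were enriched by sorting on GFP. The study has 1 group of 2 libraries, called pool 1 and pool 2 here, each holding cells of 2 tumours mixed before capture, and no control group. Nothing in the labels assigns a cell to one tumour of its pool, so a pool is the replicate and n = 2.

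A voltage-gated sodium or calcium channel opens when the membrane depolarises. Sodium entry carries the rising phase of the action potential, while calcium entry couples depolarisation to release, enzyme activity and transcription. Each channel is a single large protein with repeated domains that assembles with smaller auxiliary subunits. Oligodendrocyte precursors are unusual among glia in expressing such channels and in receiving synapses from neurons, and they lose much of the sodium current as they mature.

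Both pools listed all 6 oligodendrocyte precursor markers, which summed to 6545 and 5988 CPM. CPM is a gene's share of all UMIs of the cells, scaled to 1000000. After filters, 3506 cells of pool 1 and 3278 of pool 2 were kept, with medians of 7440 and 11272 UMIs. The pools shared 4 cell barcodes. Clustering gave 12 clusters with enough cells for a test, numbered 0 to 11, and the 8 channel genes took no part in forming them. Depth was low in cluster 0 (median UMIs per cell 3034 and 2390.5) and in cluster 8 (1137 and 1327.5). A cluster of 12 and 15 cells led by C1qa, C1qb and Csf1r was microglia-like and served as a background for RNA free in the droplets. Of 9 neuron markers, Neurod6 was at 0 in both pools and Slc17a6 in pool 1. The neuron markers summed to 18.3 and 19.5 CPM in cluster 10, the lowest, and to 168.5 and 214.7 CPM in cluster 0, the highest. Most of the sum in cluster 0 came from Snap25 (98.1 and 168.1 CPM) and Gad1 (60.1 and 42.0 CPM). Every other neuron marker was at 6.23 CPM or less there. The part of these markers in the results was not tested.

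Calcium channels carry near the start of their cytoplasmic tail an IQ-type motif that binds calmodulin, through which calcium regulates the channel. The first 2 codons of that motif are in capitals in the 60 coding bases below, shown because they separate the L-type channels (Cacna1c and Cacna1d) from the P/Q-type and R-type channels (Cacna1a and Cacna1e). Each stretch is printed 5′ to 3′ on the coding strand from the GENCODE vM21 transcripts (GRCm38) and lies within a single exon: Cacna1a at chr8:84629842-84629901 (plus, exon 40), Cacna1c at chr6:118604488-118604547 (minus, exon 41), Cacna1d at chr14:30066088-30066147 (minus, exon 41) and Cacna1e at chr1:154412467-154412526 (minus, exon 42).
Cacna1a: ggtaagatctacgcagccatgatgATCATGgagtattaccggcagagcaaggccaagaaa
Cacna1e: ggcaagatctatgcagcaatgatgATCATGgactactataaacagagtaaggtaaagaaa
Cacna1c: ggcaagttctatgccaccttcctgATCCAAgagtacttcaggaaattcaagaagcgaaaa
Cacna1d: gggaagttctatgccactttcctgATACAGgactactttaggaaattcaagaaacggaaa
The second capital codon is ATG in Cacna1a and Cacna1e, CAA in Cacna1c and CAG in Cacna1d. Cacna1c and Cacna1d were identical at 86.7% of the bases, Cacna1a and Cacna1e at 80%, and pairs across the types at 56.7 to 61.7%. The reads of a 3ʹ library fall near transcript ends instead: the last 1000 bases of the longest transcripts shared no run longer than 15 bases in any of the 28 pairs of genes.

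Among the sodium channels, Scn3a, which encodes Nav1.3, a channel prominent in the developing brain, was at 138.9 CPM in pool 1 and 124.0 CPM in pool 2. Scn2a (Nav1.2, the channel of immature axons) was at 85.2 and 63.0 CPM. Scn1a (Nav1.1, in the mature brain best known from inhibitory interneurons) was at 51.6 and 38.1 CPM. Scn3a (chr2:65457118-65567627), Scn2a (chr2:65620771-65767447) and Scn1a (chr2:66270778-66440840) lie in one region of chromosome 2. Scn8a (chr15:100869858-101045938), which encodes Nav1.6, the main channel of mature nodes of Ranvier, was at 47.0 and 35.4 CPM. All 4 sodium channels were lower in pool 2, by ratios of 0.739 to 0.893.

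Of the calcium channels, Cacna1a (Cav2.1, the P/Q-type channel of presynaptic terminals) was at 75.2 and 61.7 CPM. Cacna1e (Cav2.3, the R-type channel) was at 64.6 and 53.8 CPM. Cacna1d (Cav1.3, an L-type channel that opens at relatively negative voltages) was at 50.6 and 54.8 CPM, and Cacna1c (Cav1.2, the main L-type channel of brain and heart) at 28 and 22.9 CPM. Cacna1d was the only one of the 8 with a higher level in pool 2, by a ratio of 1.08. The 4 genes lie on separate chromosomes: Cacna1a at chr8:84388440-84640246, Cacna1c at chr6:118587240-119196418, Cacna1d at chr14:30039939-30491455 and Cacna1e at chr1:154390731-154884501. With 1 library for each pool the ratios between pools have no replicate check.

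The order of the genes was set on the level per kilobase of the longest coding transcript. Scn3a came first at 14.5 and 13 CPM per kilobase in pools 1 and 2. Cacna1a (9.49 and 7.78) and Scn2a (9.54 and 7.05) followed, and their ranges over the pools overlapped, so their order is not resolved. The same held for Cacna1d (5.83 and 6.31) and Scn1a (6.15 and 4.54). The ranges of Cacna1e (4.33 and 3.60) and Scn8a (4.11 and 3.1) also overlapped, although Cacna1e was the higher in each pool. Cacna1c was last at 2.13 and 1.74 CPM per kilobase. Since 3ʹ reads do not cover the whole transcript, the division by length is a convention. By mean CPM over the pools Cacna1e ranks above Cacna1d and Scn1a. In pool 2, however, Cacna1d (54.8 CPM) was above Cacna1e (53.8 CPM), so the order of those 2 is not resolved by CPM.

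Together the 8 genes held 541 CPM in pool 1 and 454 CPM in pool 2 (497 ± 61.8, SD, n = 2). At least 1 of them was found in 91.6% and 90.6% of cells, and the median cell held UMIs of 3. All 8 were found in 47 cells (1.34%) and 42 cells (1.28%). When every cell was thinned to 2000 UMIs, which left out 389 and 404 shallower cells, the share with any of the 8 was 67.0% and 59.1%. Scn3a was then in 27.2% of pool 1 cells (95% interval 25.6 to 28.8, exact Clopper-Pearson) and 22.7% of pool 2 cells (21.1 to 24.2). Cacna1c, the least frequent, was in 7.15% (6.27 to 8.12) and 4.84% (4.08 to 5.69). These intervals cover counting error only.

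The microglia-like cells, taken here to lack these genes, gave 79.0 CPM over the 8 genes in pool 1 and 180.5 CPM in pool 2. Their median depths were 1955.5 and 6847 UMIs. Whether these channel UMIs came from free RNA or from the cells themselves was not tested. Without thinning, each gene was found in 0 or 1 of 12 such cells in pool 1, where a count of 0 allows a share of up to 25% by a limit of 3 counts. In pool 2 each was found in 1 to 4 of 15 such cells. The highest of those shares was 26.7% for both Scn2a and Cacna1d (exact interval 7.79 to 55.1), against 45.1% and 39.5% of all kept cells of pool 2. So few microglia-like cells bound the background loosely, gene by gene.

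**Figure D1:**
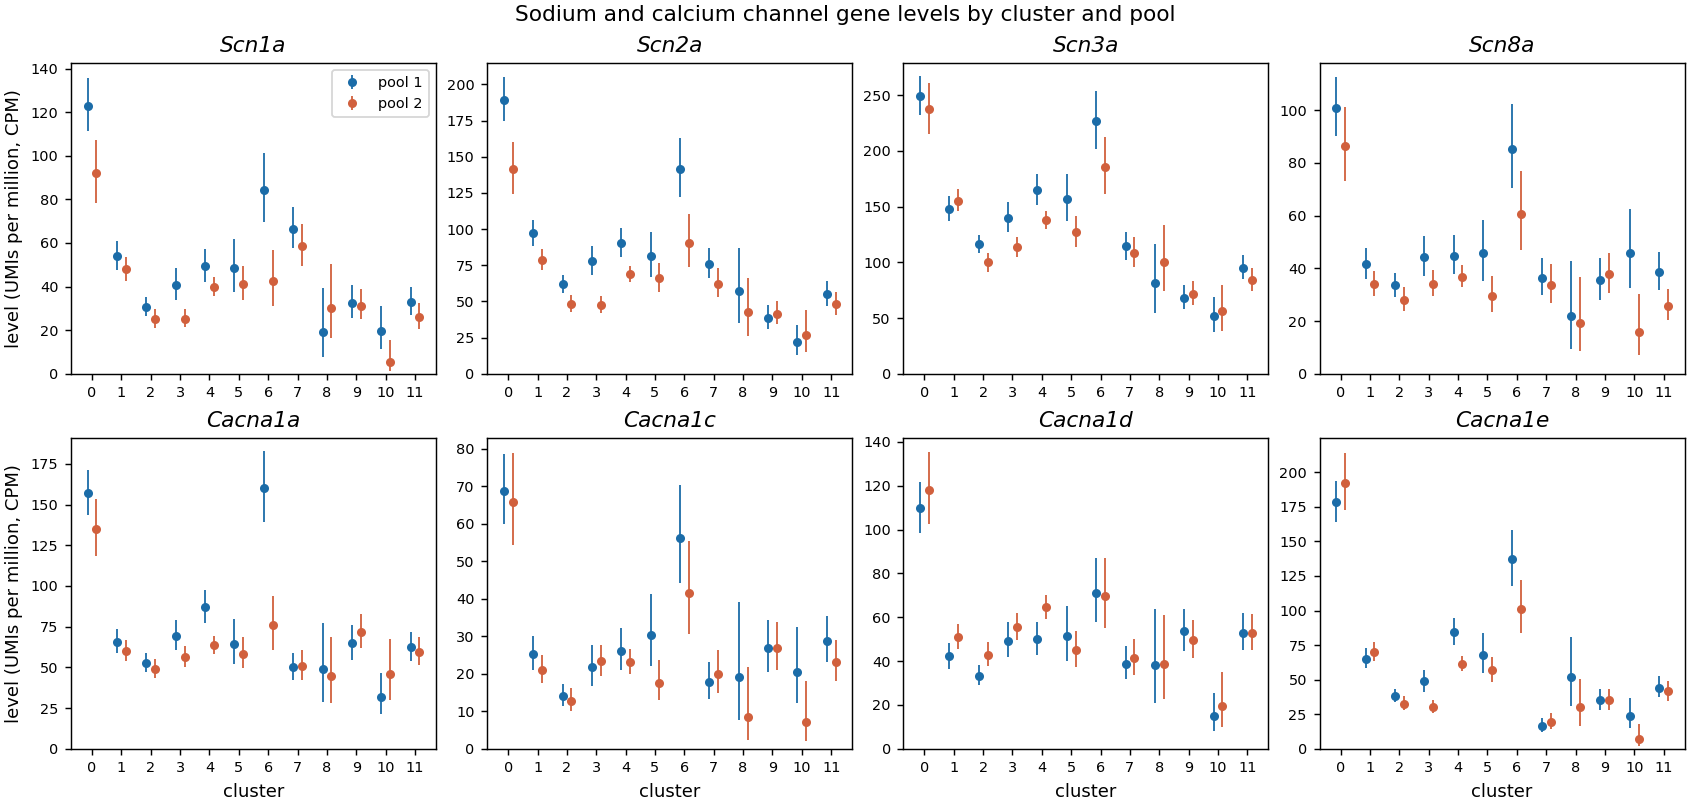
Level of each of the 8 channel genes (CPM, linear axis from 0) in each of the 12 tested clusters, pool 1 in blue and pool 2 in orange, with exact 95% Poisson intervals that cover counting error only. Clusters 0 and 6 stand highest for most genes. Cluster 10 is at or near the lowest level except for Scn8a in pool 1 (45.8 CPM). In cluster 7 Scn1a is high while Cacna1e is low.

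Relative to one another, the 12 clusters differed in every one of the 8 genes. The F test of any difference between clusters passed for 8 of 8 (edgeR's quasi-likelihood test, Benjamini-Hochberg adjusted p from 2.2e-14 for Cacna1e to 3.7e-06 for Scn8a), where 71.3% of the 11080 genes tested passed. All 8 passed the filter on low counts. Then every cluster was set against the mean of the remaining 11, each weighted equally, which gives 96 comparisons. Of these, 36 passed, 22 higher and 14 lower, and in all 36 both pools lay on the same side. Sums of one pool come from the same tumours, so the p-values measure how far cluster differences varied between the 2 pools and do not extend to other tumours.

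In cluster 0 all 8 channel genes were higher than in the other clusters. Cacna1e was at 178 CPM (pool 1) and 193 CPM (pool 2), while its medians over clusters were 50.1 and 38.2. It was the most changed of the 8, with a log2 fold change of 1.85 ± 0.13 (SE), a 3.61-fold difference (adjusted p = 2.8e-15, edgeR). The other 7 had log2 fold changes from 0.95 for Cacna1d and Scn3a to 1.35 for Cacna1c. In the same comparison 25.6% of all genes tested were higher, with a median log2 fold change of 0.02, beside 1.15 for the 8 genes. Cluster 0 held 971 and 594 cells and was led by Tsix, Gm26917, Xist and Kcnq1ot1, which are noncoding transcripts that stay in the nucleus, and by Cacna1e itself. Malat1, another nuclear RNA, made up 108474 CPM in pool 1 and 119117 CPM in pool 2, the highest of any tested cluster.

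Cluster 6, of 74 and 49 cells, had the second highest summed level, 962 CPM in pool 1 and 668 CPM in pool 2. Here 7 of 8 channel genes were higher, where 5.95% of all genes were. Cacna1e was at 137 and 101 CPM and again differed most, by 1.27 ± 0.17 (log2, adjusted p = 1.8e-05, edgeR). Cacna1d, at 71.1 and 69.7 CPM, did not pass (log2 0.44 ± 0.17, adjusted p = 0.086). For Cacna1a the pools differed widely, at 160 and 76.0 CPM (log2 fold changes of 1.24 and 0.21 within pools 1 and 2), and those of Scn1a (0.96 and 0.49) and Cacna1c (1.09 and 0.49) also differed. Unlike cluster 0, cluster 6 was deep, with medians of 13416.5 and 19699 UMIs, and Malat1 stood at 56652 and 66258 CPM. Its leading genes were Fosb, an immediate early gene, and the nuclear RNAs Miat, Gm26917 and Kcnq1ot1.

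In cluster 10 the channel genes had the lowest sums of the 12 tested clusters, 230 and 184 CPM. The cluster, of 65 and 38 cells, was led by Enpp6, Mbp and Bmp4, which are genes of differentiating oligodendrocytes. Scn1a was at 19.4 CPM in pool 1 (17 UMIs) and 5.31 CPM in pool 2 (3 UMIs). It was lower by 1.96 ± 0.42 on the log2 scale, 3.90-fold (adjusted p = 0.00039, edgeR). Within pools 1 and 2 its log2 fold changes were -1.41 and -3.19. Scn2a was at 21.7 and 26.5 CPM and Scn3a at 51.5 and 56.6 CPM. Each stood at its lowest over the 12 tested clusters in both pools, with log2 fold changes of -1.36 (-1.98 and -0.58 within pools) and -1.31 (-1.23 and -1.37). Scn8a was at 45.8 CPM in pool 1, below only clusters 0 (100.9 CPM) and 6 (85.2 CPM), and at 15.9 CPM in pool 2. It did not pass (log2 -0.49 ± 0.32, adjusted p = 0.31, edgeR).

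Of the calcium channels in cluster 10, Cacna1d was at 14.9 and 19.5 CPM, below every other tested cluster in both pools, and fell by 1.44 on the log2 scale (adjusted p = 0.00086, edgeR). Cacna1e was at 24 and 7.08 CPM, with a log2 fold change of -1.58 (-1.04 and -3.38 within pools). Cacna1a, at 32.0 and 46.0 CPM, was lower by a smaller margin, -0.88 (-1.32 and -0.25 within pools, adjusted p = 0.04, edgeR), and lost its call in 5 alternatives, among them DESeq2. Cacna1c did not pass (-0.86 ± 0.42, adjusted p = 0.15). In total 6 of 8 were lower in cluster 10, where 10.4% of all genes were. The summed level in pool 2 (184 CPM) was close to that of the microglia-like cells of the same pool (180.5 CPM), while in pool 1 it was 230 CPM against 79.0 CPM. Without clusters 0, 6 and 8 in the fit, 6 of 8 were again lower, with a median log2 fold change of -1.16, where 10.8% of all genes were.

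Cluster 7 set 2 of the genes apart in opposite directions. It was led by Ccnb1, Cenpa, Ube2c and Cenpf, genes of the G2 and M phases, and held 173 and 136 cells. Scn1a was at 66.6 CPM (pool 1) and 58.6 CPM (pool 2), while its medians over clusters were 44.6 and 35.5. It was higher by 0.62 ± 0.16 on the log2 scale, 1.53-fold (adjusted p = 0.0037, edgeR; 16.1% of all genes were higher). Cacna1e was at 16.6 and 19.7 CPM, the lowest of 12 clusters in pool 1 and the second lowest in pool 2, after cluster 10. It fell by 1.73 on the log2 scale, 3.32-fold (SE 0.23, adjusted p = 1.4e-07, edgeR; 7.82% of all genes were lower). Cacna1e in microglia-like cells was at 19.7 CPM from 1 UMI in pool 1 (exact Poisson interval 0.5 to 110). In pool 2 it was at 27.8 CPM from 4 UMIs (7.57 to 71.1). So few UMIs cannot tell whether the Cacna1e level in cluster 7 exceeds that background. None of the other 6 passed: their log2 fold changes ran from -0.41 for Cacna1c to 0.27 for Scn2a. With clusters 0, 6 and 8 left out, Scn1a (0.87) and Scn2a (0.45, adjusted p = 0.018) were higher and Cacna1e lower (-1.47), where 13.5% of all genes were higher and 8.61% lower.

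**Figure D2:**
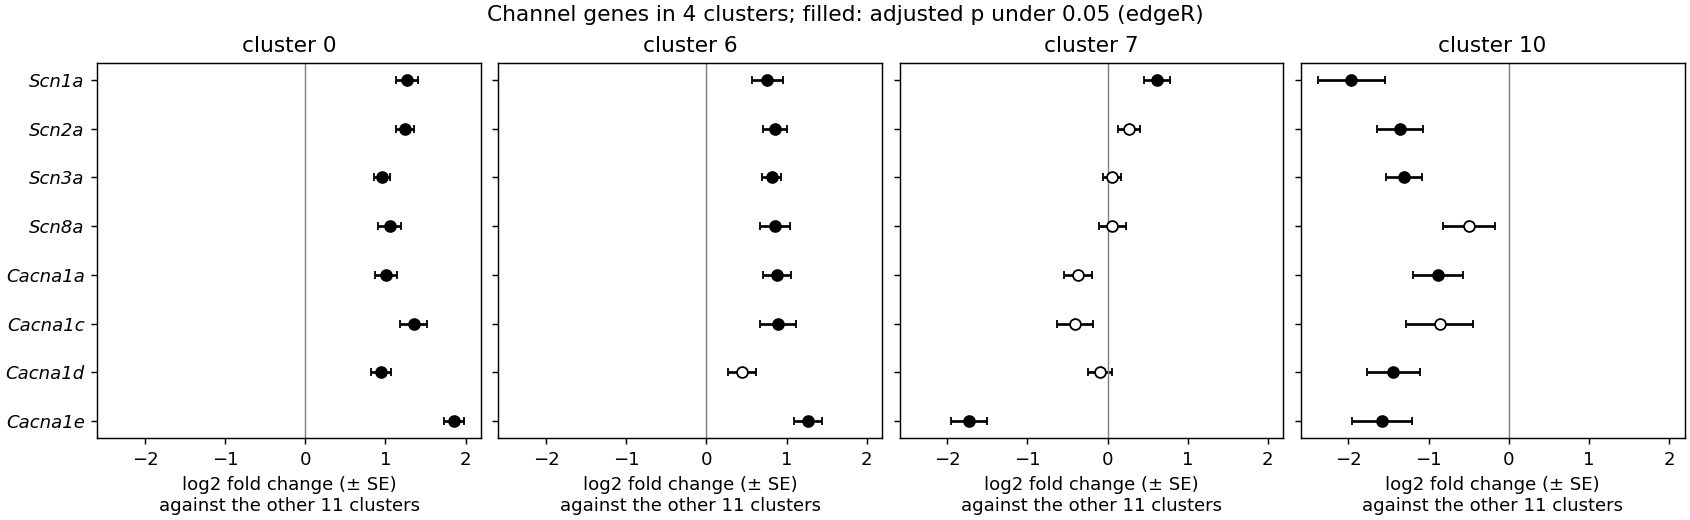
Log2 fold change (± SE) of each channel gene in clusters 0, 6, 7 and 10 against the mean of the remaining 11, on a shared axis, with filled points for an adjusted p under 0.05 by edgeR. All 8 points lie to the right in cluster 0 and to the left in cluster 10, while cluster 7 has Scn1a at 0.62 and Cacna1e at -1.73.

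The makeup of the 2 families gave the same contrast on a scale that does not depend on how libraries are scaled. In cluster 7 Scn1a made up 22.7% (exact interval 19.9 to 25.7) of the UMIs of the 4 sodium channel genes in pool 1 and 22.3% (19.1 to 25.6) in pool 2. That share was the highest of the 12 clusters in both pools, where the medians were 14.7% and 14.6%. Cacna1e made up 13.5% (10.1 to 17.5) and 14.9% (11.2 to 19.2) of the UMIs of the 4 calcium channel genes. In pool 1 it was the lowest share of any cluster, and in pool 2 cluster 10 was lower, at 8.89% of 45 UMIs; the medians were 29.7% and 24.2%.

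**Figure D3:**
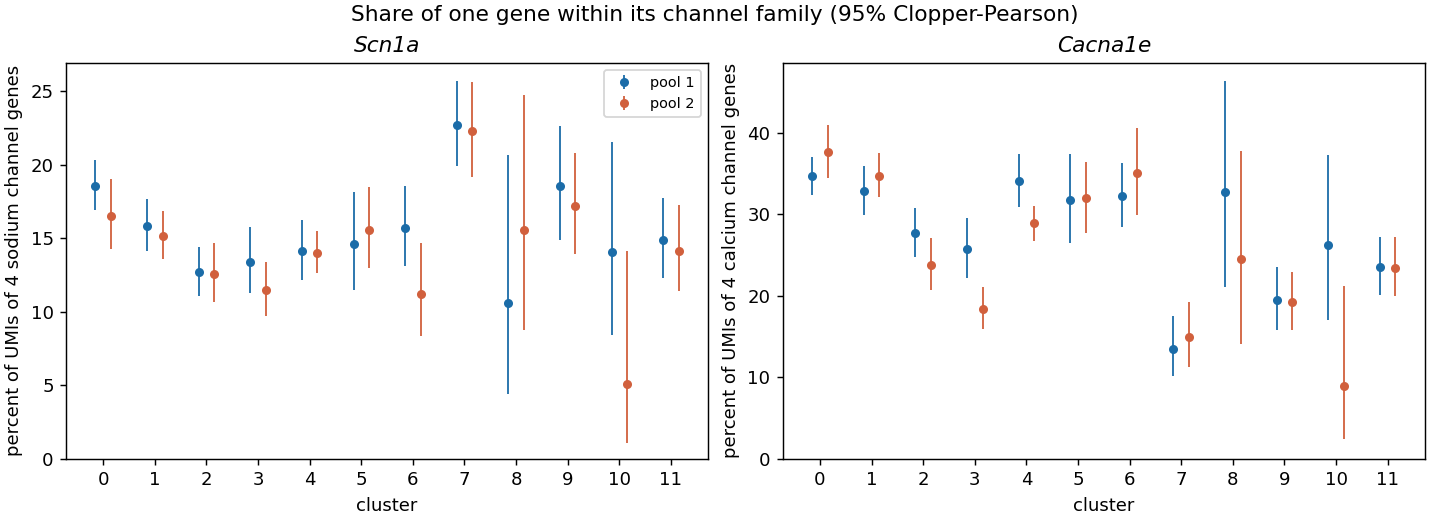
Share of Scn1a among UMIs of the 4 sodium channel genes (left) and of Cacna1e among UMIs of the 4 calcium channel genes (right), in percent from 0, for each cluster and pool with exact Clopper-Pearson 95% intervals. In cluster 7 Scn1a stands at 22.7% and 22.3%, and Cacna1e at 13.5% and 14.9%.

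Clusters 9 and 11 were also led by cell cycle genes, cluster 9 by histone genes and cluster 11 by Mcm3, Hells and Mcm6 of DNA replication. A comparison of cluster 7 with the mean of clusters 9 and 11, added after the cluster values were seen, set these groups of dividing cells against one another. Scn2a was at 75.9 and 62.2 CPM in cluster 7, 38.8 and 41.5 CPM in cluster 9, and 54.9 and 48.2 CPM in cluster 11. Scn1a (log2 0.84), Scn2a (0.74) and Scn3a (0.55) were higher in cluster 7, and Cacna1e was lower (-1.38), all by edgeR with adjusted p from 0.00013 to 0.0049. Thus 3 of 8 were higher and 1 lower, where 6.74% of all genes were higher and 6.92% lower. Scn8a, Cacna1a, Cacna1c and Cacna1d did not pass (adjusted p from 0.097 to 0.56).

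Since the printed coding stretches do not bear on such a contrast, the promoters of the pair were read as well. The windows hold 250 bases before and 50 after the start site in RefSeq (GRCm38.p6) and are printed 5′ to 3′ on the strand of the gene. Scn1a at chr2:66440788-66441087 (minus) and Cacna1e at chr1:154725871-154726170 (minus) have in capitals any match, on either strand, to the motifs searched for. The Scn1a window overlaps the 5′ end of the Scn1a span in GENCODE. The Cacna1e window lies wholly within the Cacna1e span (chr1:154390731-154884501), so its start site is internal to that span. TTTGAA and its relative TTTAAA are forms of the cell cycle homology element found in promoters of G2 and M phase genes. The CCAAT box was searched as CCAAT and the GC box as GGGCGG.
Scn1a: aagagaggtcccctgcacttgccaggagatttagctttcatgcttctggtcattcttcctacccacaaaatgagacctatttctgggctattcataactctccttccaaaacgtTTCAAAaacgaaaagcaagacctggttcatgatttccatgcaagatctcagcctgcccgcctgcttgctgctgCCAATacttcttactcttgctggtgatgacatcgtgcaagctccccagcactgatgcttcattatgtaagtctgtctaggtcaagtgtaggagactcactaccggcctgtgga
Cacna1e: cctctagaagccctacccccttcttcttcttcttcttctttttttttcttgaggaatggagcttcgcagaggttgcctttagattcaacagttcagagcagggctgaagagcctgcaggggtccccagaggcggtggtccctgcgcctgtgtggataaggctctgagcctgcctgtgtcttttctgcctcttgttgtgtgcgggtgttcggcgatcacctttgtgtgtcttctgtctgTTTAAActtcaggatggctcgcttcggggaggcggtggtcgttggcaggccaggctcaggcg
The Scn1a window holds TTTGAA on the opposite strand 136 bases before the start site and CCAAT 63 bases before it, and the Cacna1e window holds TTTAAA 12 bases before it. Of 32851 promoter windows of the same length, 17.9% hold TTTGAA, 13.2% TTTAAA, 37.4% CCAAT and 35.7% GGGCGG, so matches of this kind are common. A match is a run of letters and not a binding site. The RefSeq table gave windows for 6 of the 8 genes, with Scn3a and Cacna1a not among them. Scn2a, Cacna1c and Cacna1d, which did not pass in cluster 7 against all other clusters, also held matches. In Scn2a, TTTGAA was at 21 and TTTAAA at 9 and -239 bases from start sites. CCAAT was at -79 (opposite strand) in Cacna1c and -92 in Cacna1d, and GGGCGG was in both. No Scn8a window held any of the motifs. Matches were therefore not particular to the printed pair.

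Clusters 1 and 4 each had Scn2a, Scn3a and Cacna1e higher, where 11% and 8.41% of all genes were. Cacna1e was at 65.2 and 70.2 CPM in cluster 1, led by S100a6, Neu4 and Gpr17, with a log2 fold change of 0.61, and at 84.3 and 61.4 CPM in cluster 4, led by Aldoc and Htra1, with 0.64. Scn2a in cluster 4 was higher by 0.35 only (adjusted p = 0.032), and DESeq2 did not call it (0.098). In cluster 1 it was higher by 0.43 (adjusted p = 0.0051) and was not called without the pool as block (0.14). Without clusters 0, 6 and 8, 4 of 8 were higher in cluster 1, Scn1a (0.61) among them, and 5 of 8 in cluster 4, with Scn1a (0.48) and Cacna1d (0.40), where 11.4% and 9.16% of all genes were. Cacna1e in that fit was higher by 0.95 in cluster 1 and 0.96 in cluster 4.

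Cluster 2, led by the haemoglobin genes Hbb-bs and Hba-a1 and by Vim, and low in Malat1 (24233 and 21735 CPM), had Scn1a, Cacna1c and Cacna1d lower, where 8.03% of all genes were. Cacna1c was at 14.0 and 12.8 CPM there, a log2 fold change of -0.71. Cacna1d (-0.40) differed between the pools, at -0.62 and -0.18, and was not called without the low-count filter, without the block or with all counts (adjusted p = 0.059, 0.072 and 0.055, edgeR). Scn1a (-0.53) was not called without the block (0.074). The 3 erythroid markers summed to 360.8 CPM there in pool 2 and to at most 0.312 CPM in any tested cluster of pool 1; their part was not tested. Without clusters 0, 6 and 8, of the 8 genes only Cacna1c was lower in cluster 2 (-0.54, adjusted p = 0.047, edgeR), where 6.99% of all genes were.

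Scn2a and Scn3a were lower in clusters 9 and 11, where 4.27% and 1.66% of all genes were. Scn3a was at 68.2 and 72.0 CPM in cluster 9 and 95.3 and 84.1 CPM in cluster 11. Without clusters 0, 6 and 8, both were again lower in cluster 9 (-0.50 and -0.61) and Cacna1a was higher (0.38), where 5.85% of all genes were lower and 13.5% higher. In cluster 11 neither then passed (-0.31 and -0.32, adjusted p = 0.22 and 0.099, edgeR), and 0 of 8 were called, where 8.35% of all genes were. Clusters 3, 5 and 8 had 0 of 8 called by edgeR, where 13.8%, 3.27% and 2.43% of all genes were called. At an unadjusted p under 0.05 there were 1, 1 and 3, and DESeq2 called 0 in each, with values for 5 of 8 in cluster 8. Without clusters 0, 6 and 8, Scn3a was higher in cluster 5 (0.47, adjusted p = 0.022, edgeR), where 2.31% of all genes were.

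Malat1 moved with the channel genes over the clusters. Across the 24 sums of a cluster in a pool, the summed level of the 8 genes and the Malat1 level had a Pearson r of 0.84. Without clusters 0 and 6, r was 0.31 over 20 sums. For the mitochondrial share, r with the channel sum was 0.66, and 0.16 without those clusters. The points share libraries, tumours and depth, and these r values are descriptions. Cluster 10 stood off the relation, with Malat1 at 46321 and 52366 CPM and the lowest channel sums.

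**Figure D4:**
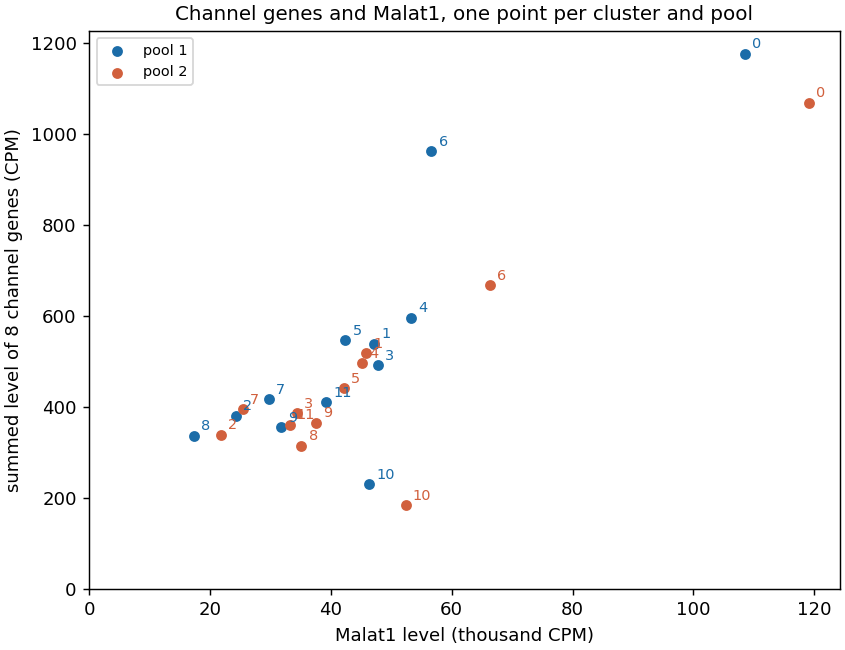
Summed level of the 8 channel genes (CPM) against Malat1 (CPM in units of 1000), one point per cluster and pool with the cluster number beside it, pool 1 in blue and pool 2 in orange, both axes from 0. Cluster 0 lies at upper right with 1177 and 1069 CPM, and cluster 10 lies below the rest with 230 and 184 CPM.

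The same relation was measured inside clusters, by dividing the cells of each pool and cluster at their median Malat1 share. All 8 channel genes were higher in the cells above the median, called the high Malat1 group, by 0.23 ± 0.06 (Scn3a) to 0.61 ± 0.10 (Cacna1c) on the log2 scale, both pools on the same side for each. The adjusted p ran from 5.5e-09 for Cacna1e to 0.0018 for Scn2a (edgeR), and 19.6% of all genes were higher. This fit compares the groups within each pool and cluster, over 48 sums. Its p-values therefore measure spread over clusters as well as pools, and clusters of one pool share tumours. They do not extend to other tumours. Scn2a differed by 0.15 in pool 1 and 0.33 in pool 2, and without the block for pool and cluster 0 of 8 passed. The high groups had a higher median mitochondrial share in most clusters and, in several, lower depth. In cluster 3 of pool 1, for example, the median was 8573 UMIs in the high group and 17013 in the low group.

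Cells with a middle share of Malat1, from 3 to 6% of UMIs, gave a second view, also added after the data were seen. Among these cells 5 of 8 genes were higher in cluster 0, where 9.3% of all genes were, with a median log2 fold change of 1.11, beside 1.15 for all cells. Cacna1e was higher by 1.94 in cluster 0 and by 1.17 in cluster 6, where 2 of 8 passed against 1.3% of all genes. In cluster 10, 5 of 8 were lower against 6.94% of all genes, with a median of -1.60. In cluster 7 Cacna1e was lower (-1.55, adjusted p = 0.001, edgeR), where 3.31% of all genes were, and Scn1a (0.71, adjusted p = 0.0502) did not pass, where 8.92% of all genes were higher. The cells of this range in cluster 0 still had low depth, with medians of 2672 and 1753 UMIs.

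The channel genes are long. Their spans in GENCODE vM21 run from 110.5 kb for Scn3a to 609 kb for Cacna1c, and 86.6% to 99.1% of the genes fitted were shorter. The 10% of genes with the longest spans, 1066 tested, also stood high in cluster 0 (602 higher and 67 lower, median log2 0.52), in cluster 6 (220 and 8, median 0.33) and in the high Malat1 group (548 of 1118 higher, median 0.22). In cluster 10 those genes had 158 higher and 260 lower, with a median of -0.35, and in cluster 7 67 and 218, with -0.24. Whether reads in introns were counted is not given in the sources used here. The part of nuclear RNA, gene length or depth in these cluster differences was not tested.

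Cycling state within a cluster was a separate comparison. Cells with UMIs of at least 2 of 10 core cycling genes after thinning (103 and 81) were set against cells with none (636 and 575) within clusters 2, 3 and 11. Of the 8 channel genes, 0 were called by edgeR, 0 had an unadjusted p under 0.05 and 0 were called by DESeq2, where edgeR called 2.22% of all genes higher and 1.77% lower. The log2 differences ran from -0.08 for Scn2a to 0.30 for Scn8a. The 95% interval, by a normal approximation, was -0.21 to 0.42 for Scn3a, -0.74 to 0.62 for Cacna1c and -0.55 to 0.43 for Cacna1e. The other clusters, cluster 7 among them, had fewer than 5 cells of one state in a pool and did not enter. The comparison therefore covers clusters 2, 3 and 11 only and cannot address the Cacna1e level of cluster 7.

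**Figure D5:**
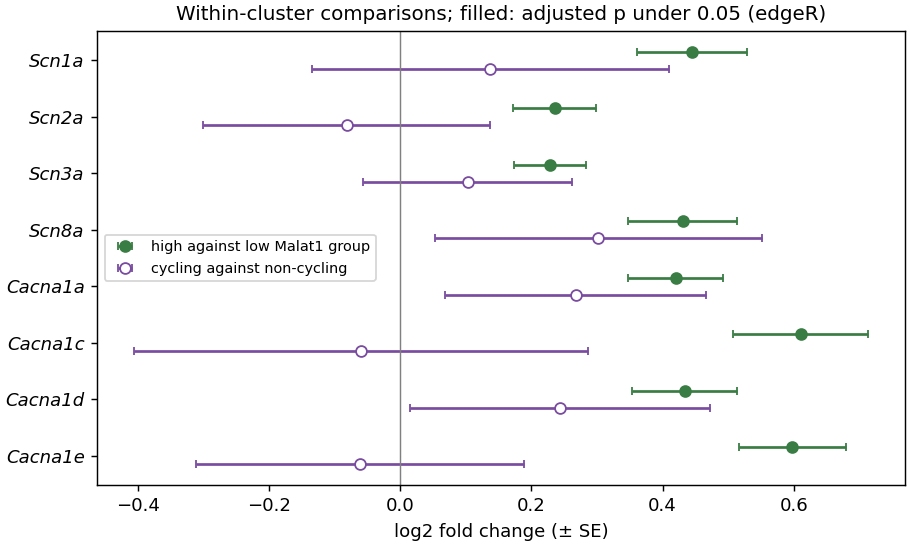
Log2 fold change (± SE) of each channel gene within pools and clusters, in green for the high against the low Malat1 group and in purple for cycling against non-cycling cells, with filled points for an adjusted p under 0.05 by edgeR. All 8 green points lie to the right of 0, from 0.23 to 0.61, and no purple point is filled.

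Other genes of the sodium channel complex were counted from lists. The counts of called genes are to be read against all genes tested, of which 25.6% were higher and 28.4% lower in cluster 0, 11.6% higher and 10.4% lower in cluster 10, and 16.1% higher and 7.82% lower in cluster 7. Of 7 other pore genes, Scn7a (44.4 and 60.1 CPM), an atypical sodium-sensing channel, and Nalcn (62.2 and 58.7 CPM), a leak channel, had enough counts for a test. Both were higher in cluster 0 (0.90 and 0.59) and both lower in cluster 7 (-0.58 and -0.48). Scn7a was lower in cluster 10 (-1.86). Of 3 testable beta subunits, which anchor and tune the pore, 2 were higher in cluster 0 (25.6% of all genes) and 2 lower in cluster 10 (10.4% of all genes), among them Scn3b (0.68 and -1.83).

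Among 9 partners of sodium channels, 5 were higher and 1 lower in cluster 0 (25.6% and 28.4% of all genes), led by the ankyrins Ank2 (0.75) and Ank3 (0.66), which tether the channels to the membrane skeleton. In cluster 10, 2 were higher and 1 lower (11.6% and 10.4% of all genes). Nfasc, the neurofascin that organises nodes and paranodes and that oligodendrocytes also make, was higher by 4.17 ± 0.09, and the adhesion molecule Nrcam by 1.74 ± 0.14, while Fgf12 was lower by 1.15. Cluster 10 thus held higher Nfasc and lower Scn1a, Scn2a and Scn3a. In cluster 7, 0 were higher and 3 lower (16.1% and 7.82% of all genes): Nfasc (-1.09), Nrcam (-0.67) and Fgf13 (-1.96).

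On the calcium side, Cacna1b (N-type; 9.87 and 11.3 CPM) and Cacna1h (T-type; 20.4 and 23.2 CPM) were the other pore genes with enough counts. Both were higher in cluster 0 (1.59 and 0.74). Cacna1b was lower in cluster 7 (-2.13), as was Cacna1e, and Cacna1h was lower in cluster 10 (-1.87). Of 11 testable auxiliary subunits, 6 were higher in cluster 0 (25.6% of all genes), with Cacnb2 at 2.01 and Cacna2d3 at 1.14, and 5 were lower in cluster 10 (10.4% of all genes). Cacng4, a subunit that also regulates AMPA receptors, had the highest level of the list at 730 and 655 CPM and was lower in cluster 10 by 1.38. In cluster 7, 1 was higher (Cacng4, 0.32) and 2 lower (Cacna2d1, -0.98, and Cacnb4, -0.46).

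Calm2 and Calm3 encode calmodulin, which binds the IQ-type motif printed above. In cluster 0, 9 of 15 genes of calcium release and calmodulin were higher, where 25.6% of all genes were, and 4 lower, a share near the 28.4% of all genes. Calm2 (-1.20) and Calm3 (-1.14) were among the lower ones, opposite to the channels. In cluster 7 Calm2 (1.82) and Calm3 (0.74) were higher. In cluster 10, 2 were higher and 6 lower (11.6% and 10.4% of all genes), with the kinase gene Camk2b at -2.26 and Itpr2, a calcium release channel and one of the markers of committed precursors, at 1.83. Of the 3 genes of the REST complex, a repressor of neuronal genes that include sodium channels, Rest (0.82) and Rcor2 (1.86) were higher in cluster 10. Rcor2 had a low level (2.66 and 3.09 CPM in pools 1 and 2) and passed narrowly (adjusted p = 0.048, edgeR). The third gene, Rcor1, was at -0.75 there and did not pass. Rcor1 was higher in clusters 0 (0.49), 7 (0.78) and 9 (0.57). The part of these genes in the channel levels was not tested.

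Within a cell, the channel genes were found together more often than the product of their shares. After thinning to 2000 UMIs, 28 of 28 pairs in pool 1 and 25 in pool 2 were above that product, with median ratios of 1.29 and 1.21. The largest ratio in pool 1 was that of Cacna1c with Cacna1e, at 1.66 (58 cells against 35.0), and in pool 2 that of Scn8a with Cacna1c, at 2.08 (23 cells against 11.1). When the product was taken inside clusters, 23 and 17 pairs were above it and the medians were 1.11 and 1.09. The ratios are descriptions of these cells.

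Over the 24 sums, centred within each pool, pairs of the 8 genes had r from 0.51 (Scn1a with Cacna1a) to 0.92 (Scn2a with Scn3a), with a median of 0.76. The r of single genes with Malat1 ran from 0.42 to 0.69. Of 7479 genes compared, those most like Scn1a were Csrnp3 (r = 0.94), Brinp2 (0.92) and Slitrk2 (0.91). Those most like Scn2a were Xkr6, Rbfox2 and Scn3a (0.92 each), and those most like Scn3a were Cttnbp2, A830082K12Rik and Tro (0.93 each). Scn8a was nearest to Mycbp2 (0.94), S100pbp (0.93) and Tut4 (0.92).

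For the calcium channels, Cacna1a was nearest to Clasp1 and Trerf1 (0.92 each) and Cdh11 (0.90). Cacna1c was nearest to Zhx3, Cds2 (0.92 each) and Atp8a1 (0.91). Cacna1d was nearest to Agap1, Nrxn3 (0.95 each) and Myo5a (0.94). Cacna1e was nearest to Klf12, Ndrg4 and Sgpl1 (0.94 each). The 24 sums share 2 libraries, and 12 clusters that differ in depth and Malat1, so no p is given.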

How the data were processed

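PolyA RNA was captured at its 3ʹ end (10x Genomics, Dual Index), per the labels. The submitters' processing notes name Cell Ranger 6.0.2 and GRCm38 (mm10). The authors deposited UMI counts without normalization, 17447 genes in 3843 barcodes for pool 1 and 17778 genes in 3650 barcodes for pool 2; any filter of theirs is not stated. Barcodes under 500 genes or over 15% mitochondrial UMIs were dropped (337 and 372). Scrublet called 0 and 2 doublets, too few to have worked, so the 98 and 86 cells of highest score were removed in an alternative.

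Each count was split at random (binomial, probability 0.5). The training part gave clusters (scanpy 1.11.5; 1000 variable genes without channel genes; 30 components; Leiden resolution 0.8), cycling calls and Malat1 groups, and the held-out part gave the tests. Sums per pool and cluster (at least 20 cells in each pool) were fitted with edgeR 4.0.16 (quasi-likelihood, TMM, filterByExpr, pool as block; pool and cluster for Malat1 groups and states), and p-values were adjusted by Benjamini-Hochberg; DESeq2 1.42.0 (R 4.3.3) was an alternative. Clusters had 24 sums, 11 residual degrees of freedom and 11080 genes tested, without the genes used to cluster. Levels and shares use all counts. Cluster log2 fold changes within a pool are untested: the cluster's held-out log2(CPM + 1), with TMM scaling, minus the mean of the other clusters. The script was tested on simulated data.

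The channel genes and lists were chosen with earlier results of these data known. Named genes are all 8, up to 3 of smallest p per list and contrast, and the 3 of highest r per channel gene with at least 20 CPM. Cells of 3 to 6% Malat1, fits without clusters 0, 6 and 8, scaling by total UMIs, and cluster 7 against 9 and 11 were added after seeing the data. The pool number pairs every cluster by its tumours, so the block follows the libraries. Some genes and sequences are not reported here.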

Additional observations from a re-analysis of the deposited data

How the results depend on the processing

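Of the 36 cluster calls, none changed direction in any alternative. DESeq2 kept 34, the fit with no replicate block (no pool term) 29, no filter on low counts 35, TMM without Malat1 and mitochondrial genes 36, and scaling by total UMIs 36. The matched clusters at resolutions 0.5 and 1.2 kept 21 and 23 of 23. In cells of 3 to 6% Malat1, without cluster 8 (left out for its low depth in both pools), 17 of 36 passed, in fewer cells. For the Malat1 groups, 8 of 8 channel genes were called, 0 with no replicate block (no term for pool and cluster), and 7 to 8 when a pool was left out. Cycling state gave 0 in every alternative. Leaving out a pool gave a summed level of 454 to 541 CPM and 25 to 28 co-detected pairs. Scaling by total UMIs moved the median log2 fold change of all genes by 0.27 in cluster 0, 0.17 in cluster 6 and -0.12 in cluster 8. It moved the higher and lower calls from 2834 and 3147 to 4187 and 2376 in cluster 0, from 659 and 885 to 1478 and 456 in cluster 6, and from 1781 and 866 to 1438 and 1183 in cluster 7. In 3 other clusters it changed the share of higher calls by over 10 points: to 1473 and 1460 in cluster 2, 160 and 114 in cluster 8, and 1427 and 792 in cluster 9. Counts over all genes moved by over 1.5 times in several alternatives. With no replicate block, 5 clusters with channel calls went to 824 from 1798 (cluster 1), 1715 from 2877 (2), 595 from 1329 (4), 971 from 1544 (6) and 732 from 1286 (11). Clusters 3, 5 and 8 went to 730 from 1530, 39 from 362 and 174 from 269, cycling state to 42 from 365, and the Malat1 groups to 0 from 4120. DESeq2 gave 853 in cluster 4 and 158 of 365 by cycling state, and all counts gave 589, 2476 and 565 in clusters 5, 6 and 8; resolution 1.2 gave 101 in cluster 8. A single pool gave 73 to 95 by cycling state and 2197 to 2715 by Malat1 group. In cells of 3 to 6% Malat1 the counts were 2226 from 5981 (cluster 0), 184 from 1544 (6), 1168 from 2647 (7) and 1381 from 2436 (10), with 864, 557, 801, 633 and 220 in clusters 1 to 5, 1418 from 2255 in cluster 9 and 708 in cluster 11. Few UMIs limit precision in clusters 8 and 10, whose channel genes rest on 4 to 47 and 3 to 45 UMIs in each pool. In cluster 10 the log2 fold change of Scn1a was -1.41 in pool 1 and -3.19 in pool 2. The causes of these changes were not tested.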

Other observations

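The small clusters 13 and 14 had too few cells for a test. Cluster 13, of 8 cells in each pool, was led by the astrocyte genes Gja1 and Aqp4 and had 418 CPM over the 8 channel genes in pool 1 and 162 CPM in pool 2. Cluster 14, of 4 and 20 cells, was led by Apod, Ptgds, Mal and Mobp of mature oligodendrocytes and had 173 and 105 CPM. The microglia-like cells had 79.0 and 180.5 CPM. In pool 2 the measured levels of both clusters were below that background, but these rest on few UMIs. Cluster 13 held 5 UMIs of the sodium and 5 of the calcium channel genes there. Cluster 14 held 13 and 16, and the microglia-like cells 14 and 12. So few UMIs do not resolve whether either cluster lies below the background in pool 2.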
